A study of Mus musculus with 48 samples.

Results

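Ribosome loading was measured against message in mouse kidney as the ratio of ribosome profiling (Ribo-seq) to RNA-seq, gene by gene, in the embryo at E15.5 and in the young adult at P42. The kidney gave 8 of the 48 libraries of the series: 2 RNA-seq and 2 Ribo-seq libraries at each stage, all from wild-type C57BL/6 mice. Whole kidney was used at both ages, and nothing in the sources says how many animals went into a library. Each pair is described by the submitters as biological replicates. The other 40 libraries, from brain, retina, heart, liver and lung at the same stages, lent their replicate spread to the tests and served as a comparison. Ribo-seq reads the short stretch of messenger RNA that a translating ribosome shields from nuclease, after cycloheximide has halted the ribosomes in the lysate. The RNA-seq libraries hold polyadenylated RNA.

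A gene entered at a stage when its mean RNA-seq value over the 2 kidney libraries reached 5 TPM, a level scaled for transcript length and library size. This left 11546 genes at E15.5 and 9267 at P42, of 22055 listed, and 8595 passed at both stages. The ratio is log2 of (Ribo-seq TPM + 1) over (RNA-seq TPM + 1), averaged over replicates and set to 0 at the median gene of the stage. A centred ratio of 1 therefore means that footprint level over message level, both scaled for length, was 2-fold that of the median gene. It gives neither a number of footprints per message nor an absolute rate. Before centring, the median gene stood at −0.88 at E15.5 and at −0.997 at P42. Footprint and message levels compared in TPM below are not centred. A gene was called high or low when its ratio was at least 1 in size with an adjusted p below 0.05 (limma, Benjamini-Hochberg over all genes tested).

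Messages differ widely in how many ribosomes they carry. Messages for ribosomal proteins and several translation factors begin with a C followed by a run of pyrimidines, the 5′ terminal oligopyrimidine (TOP) tract, through which growth signalling by way of mTOR sets their translation. Messages for ferritin carry an iron response element, a hairpin that holds back initiation when iron is scarce. Replication-dependent histone messages end in a stem-loop in place of a poly(A) tail. Messages of the mitochondrial genome are read by the organelle's own ribosomes.

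The sequences that define the TOP, iron-responsive and histone messages are shown first, since results on these groups refer to them. All come from GENCODE M21 transcripts on the mouse build GRCm38, with coordinates counted from 1. The first 4 are the first 25 bases of TOP messages whose ratio fell between the stages, with the leading run of pyrimidines in capitals.
Rps9: CTCTTTgtctcgggcctgagttcgt
Rpl37a: CTCTTCggacttgggcttgggttcc
Rack1: CTTTTTCTCCacagggtcgtggtgg
Eef1b2: CTTTTTTTCCCTCagcgctggccgc
They lie at chr7:3704038-3704062, chr1:72711290-72711314, chr11:48800360-48800384 and chr1:63177130-63177154, all on the plus strand. A C at the first annotated base with at least 4 further C or T after it was found in 10 of 47 large-subunit genes (21.3%), 13 of 32 small-subunit genes (40.6%) and 7 of 18 other TOP genes (38.9%), against 5.88% of 12218 genes tested at either stage. Only the transcribed strand was read, and only transcripts annotated as protein coding. Annotated starts need not be the starts used in kidney.

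The iron response elements of 4 genes follow, with the 6-base loop in capitals between the arms of the hairpin.
Fth1: cctgcttcaaCAGTGCttgaacggaa
Ftl1: cttgcttcaaCAGTGTttgaacggaa
Slc40a1: acttcagctaCAGTGTtagctaagtt
Alas2: ggttcgtcctCAGTGCagggcaacag
They lie in 5′ untranslated exons at chr19:9982734-9982759 (plus strand), chr7:45459780-45459805 (minus), chr1:45925466-45925491 (minus) and chrX:150547460-150547485 (plus). A hairpin whose loop reads CAGTG and then A, C or T, with 5 paired bases on either side of it and an unpaired C before the upper stem, read on the transcribed strand, was found in the 5′ untranslated region of 15 of 12128 genes (0.124%). The histone stem-loop is shown for a pair of H4 genes, with both arms and the loop in capitals.
Hist1h4f: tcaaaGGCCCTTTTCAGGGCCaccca
Hist1h4h: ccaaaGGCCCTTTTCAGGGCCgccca
They lie at chr13:23551286-23551311 (minus) and chr13:23531453-23531478 (plus), near the 3′ end of each transcript. The histone stem-loop motif, with 6 complementary bases on either side of the loop, stood in the last 200 bases of 10 of the 22 histone genes tested at E15.5 (45.5%) and of 39 of 12218 genes overall (0.319%). A match is a description of the annotated letters and shows no use of the element in these cells.

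The libraries need a word before the results. Replicates of a group correlated at r = 0.993 to 0.997 over all listed genes. The listed genes held 81.7% and 48.9% of the TPM total in E15.5 RNA-seq replicates 1 and 2, 89.3% in both at P42, and 38.6% to 46.1% in the 4 Ribo-seq libraries. E15.5 RNA-seq replicate 2 therefore stood apart from its partner, and each result that turns on it is given with and without it. Between 11600 and 14572 genes reached 1 TPM in a library. Kidney markers followed the labels. Umod, the urine protein of the thick ascending limb, stood at 4.17 and 2.59 TPM in E15.5 RNA-seq and at 2606 and 3006 at P42, and Six2 of the nephron progenitors at 169 and 110 against 2.35 and 2.56. The E15.5 tissue also held messages of other organs. All 7 adrenal and all 6 liver markers reached 5 TPM in E15.5 RNA-seq, with summed levels of 1024 and 601 TPM (adrenal) and 4060 and 2409 TPM (liver), against 1.73 and 1.99 TPM and 342 and 286 TPM at P42. Of 4 skeletal muscle markers, 2 reached 5 TPM at E15.5 and none at P42, where their sum was 0.135 and 0.138 TPM. The 6 erythroid markers summed to 6210 and 3584 TPM at E15.5 and to 868 and 490 TPM at P42. In whole tissue a ratio averages over all these cells, and fewer cells of a type cannot be told apart from less RNA per cell. Each stage and assay was deposited as a table of its own, so that stage and table cannot be told apart either.

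At E15.5, 1241 of 11546 genes were high (10.7%) and 1668 low (14.4%). At P42, 1108 of 9267 were high (12%) and 1334 low (14.4%). The ratio spread over genes with an SD of 0.96 at E15.5 and 0.97 at P42. Most of that order was kept: the ratios of the 2 stages correlated across 8595 genes at r = 0.78 (Spearman's rho = 0.78), where genes are not independent and the stages shared no library. Genes high at both stages numbered 460, which is 51.6% of the 892 high at E15.5 and 45.8% of the 1004 high at P42. Genes low at both numbered 830, 65% of the 1277 low at E15.5 and 65.3% of the 1270 low at P42. A single gene, Hist1h2bc, was high at E15.5 and low at P42. In the other direction, Copg2, Epo and Slc5a2 were low at E15.5 and high at P42, and exons of all 3 overlap another gene. These names were taken after their values were seen.

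**Figure D1:**
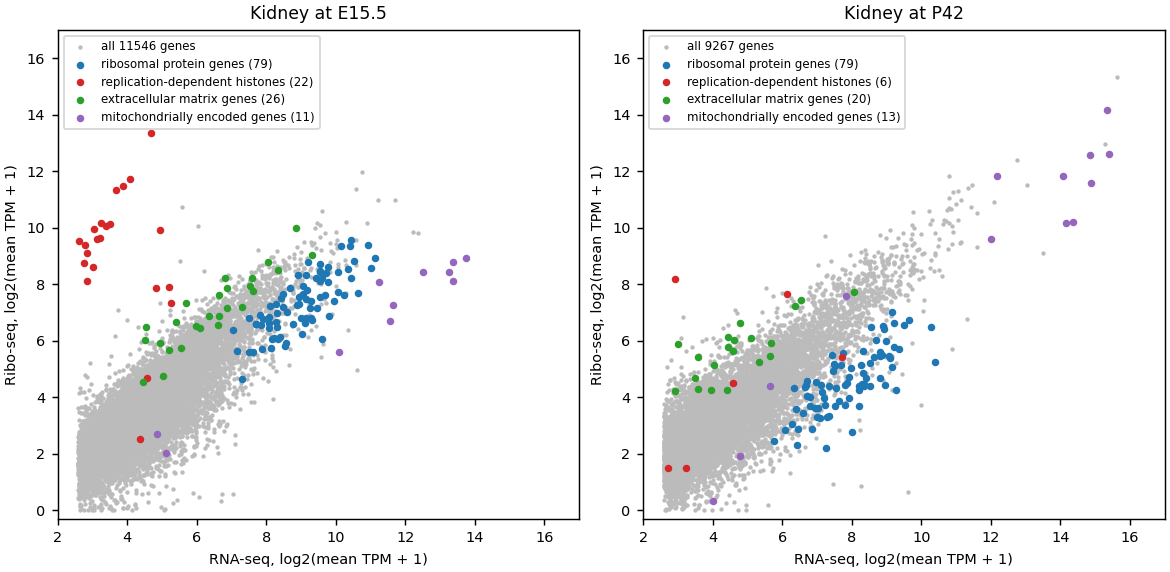
Each point is a gene, placed by log2(mean TPM + 1) in RNA-seq (horizontal) and in Ribo-seq (vertical) over the 2 kidney libraries of each assay, at E15.5 (left, 11546 genes) and P42 (right, 9267 genes). Ribosomal protein genes lie low in the cloud at P42, extracellular matrix genes along its upper edge at both stages, mitochondrially encoded genes far to the right, and histone genes far above it at E15.5.

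The ratio moved between the stages by at least 1 with an adjusted p below 0.05 for 582 of 8595 genes: 299 rose (3.48%) and 283 fell (3.29%). Without P42 RNA-seq replicate 1 these counts were 60 and 101, with the spread taken from the 8 kidney libraries alone 44 and 78, and with library weights 15 and 45, so the number of genes that moved rests on that library and on how the spread is taken. The groups below are read against these shares. The change had a median of 0.03 and an SD of 0.63 over genes.

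Ribosomal protein genes made the largest group to move. All 47 genes of the large subunit and all 32 of the small subunit passed the floor at both stages. At E15.5 the medians were −0.66 and −0.73, with 15 low in each and none high. At P42 they were −2.32 for both subunits, with 45 of 47 and 32 of 32 low. Between the stages the ratio fell in 36 of 47 (median change −1.53) and in 23 of 32 (median change −1.61), and rose in none. Summed over the large subunit, RNA-seq held 37250 and 22530 TPM at E15.5 and 16220 and 13450 TPM at P42, while Ribo-seq held 9662 and 9165 TPM and then 1579 and 1450 TPM. Message and footprints were thus both lower at P42, the footprints by far more. The number of members that fell was 20 and 13 without P42 RNA-seq replicate 1, 16 and 12 with kidney libraries alone, and 9 and 6 with library weights. The medians kept their sign and lay between −1.67 and −1.34 (large) and between −1.77 and −1.41 (small). This covers only the alternatives that kept most members of a list.

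Rpl37a, a small protein of the large subunit, held 442 and 248 TPM in E15.5 RNA-seq and 167 and 198 TPM in Ribo-seq. At P42 RNA-seq held 223 and 173 TPM and Ribo-seq 11.6 and 15.5 TPM. In TPM before centring, footprints were below message by little at E15.5 and by far at P42. The centred ratio of Rpl37a fell by 2.80 ± 0.52 (SE, limma adjusted p = 0.00063). Rps9, of the small subunit, had 700 and 417 TPM in E15.5 RNA-seq, 332 and 308 in Ribo-seq, then 243 and 207 against 21.6 and 20.1 at P42. Its ratio went from 0.13 to −2.37, a fall of 2.49 ± 0.37 (limma adjusted p = 2.54e-05). Rplp1, an acidic protein of the stalk that recruits elongation factors, was already low at E15.5, at −1.54, and stood at −4.13 at P42. Its RNA-seq values were 2618 and 1529 TPM and then 1515 and 1166 TPM, against Ribo-seq values of 430 and 325 and then 41.2 and 33.2. Rpl36a (−2.40), Rpl9 (−2.35) and Rps23 (−2.34) completed the ribosomal proteins among the 10 largest falls.

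Copies of these genes are scattered through the genome, and the handling of footprints that match several places is not stated. Over the coding sequence, the median share of 28-base stretches also present in another gene's transcripts was 99.5% for the large subunit and 96.7% for the small subunit, against 0% for the median of all genes tested. Levels and ratios of these genes are uncertain for that reason. All 47 large-subunit genes and 31 of 32 small-subunit genes shared over 10%. The alternative that left such genes out could therefore not be applied to these lists. The share is a property of the gene and is the same at both stages, but its effect on the ratio at each stage was not tested. Rpl8, chosen here after its values were seen because it shares only 11.4%, held 1734 and 1028 TPM in E15.5 RNA-seq and 783 and 737 in Ribo-seq, and at P42 773 and 667 against 94.0 and 93.4. The Ribo-seq values were lower than every RNA-seq value of their stage, by little at E15.5 and by far at P42. The ratio of Rpl8 went from 0.07 to −1.93, a fall of 2.00 ± 0.43 (limma adjusted p = 0.00342), larger than the median of either subunit. Rps3, chosen in the same way and sharing 22.2%, fell by 1.42 ± 0.32 (limma adjusted p = 0.00486).

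Other TOP messages, for translation factors and related proteins, also had lower ratios in the adult. Of 18, 4 were low at E15.5 (Tpt1, Eef1a1, Pabpc1 and Naca) and 1 was high (Eef1d at 1.17), with a median of −0.42. At P42, 15 were low and none high, with a median of −1.52, and 10 fell between the stages. Eef1b2, an exchange factor of elongation, had 594 and 315 TPM in E15.5 RNA-seq with 255.5 and 263 in Ribo-seq, and at P42 182 and 169 with 20.7 and 18.2. The gap between assays was small in the embryo and wide in the adult, a fall of 2.26 ± 0.30 (limma adjusted p = 3.95e-06). Rack1, a scaffold on the small subunit that shares only 5.52% of its coding stretches, had 611 and 350 TPM with 372 and 370 footprint TPM, and then 194 and 183 with 29.4 and 27.8. It fell by 2.24 ± 0.36 (limma adjusted p = 9.52e-05). Tpt1, the translationally controlled tumor protein, had the lowest P42 ratio among the genes ranked, −5.26: 1117 and 927 TPM of message carried 13.99 and 10.8 TPM of footprints. All of its coding stretches recur in other transcripts. Eef1a1, which delivers aminoacyl tRNAs, went from −1.62 to −3.55, and Eef2, which moves the ribosome along the message, from −0.07 to −1.99. The poly(A)-binding protein Pabpc1 was low at both stages, −1.28 and −2.16, and its change of −0.88 missed the threshold (limma adjusted p = 0.105). Ybx1, an abundant messenger-binding protein that is on none of the lists, went from −1.45 to −3.91 (limma adjusted p = 1.03e-06 for the change).

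The initiation factors moved less. Of 34 tested at E15.5, 8 were high and 2 low (Eif2s3x and Eif4g2), with a median of 0.66. Of 33 at P42, 2 were high (Eif3c at 1.27 and Eif4g1 at 1.01) and 1 was low (Eif2s3x at −1.55), with a median of 0.03. Only 3 fell, Eif3k (−1.35), Eif3i (−1.30) and Eif1 (−1.26), and none fell with the kidney libraries alone. Eif3f, a subunit of the same eIF3 complex that was listed with the TOP messages and shares 1.23%, fell by 1.41 ± 0.35 (limma adjusted p = 0.00972).

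**Figure D2:**
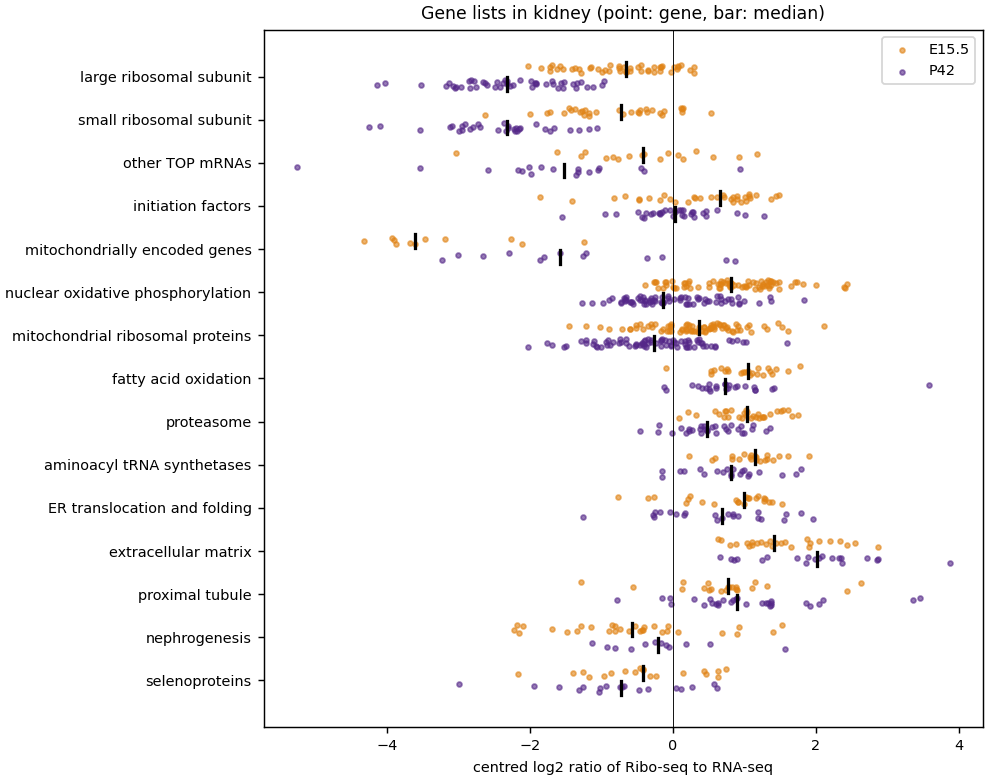
Centred log2 ratio of Ribo-seq to RNA-seq for each tested gene of 15 lists at E15.5 (orange) and P42 (purple); a black bar marks the median of a list and the vertical line the median gene of the stage. Both ribosomal subunits shift from medians of −0.66 and −0.73 to −2.32, nuclear oxidative phosphorylation from 0.81 to −0.14, and mitochondrially encoded genes from −3.61 to −1.58, while the extracellular matrix stays above 0 throughout.

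The other tissues can be set beside this. The median ratio of the large-subunit genes in kidney, −0.66 at E15.5, lay near that of brain (−0.35), retina (−0.54), heart (−0.55) and lung (−0.68), and below that of liver (0.24). At P42 the kidney median of −2.32 lay between those of heart (−2.15) and liver (−2.66), with lung at −1.99, brain at −1.31 and retina at −0.51. Against the mean of the other 5 tissues at P42, 2 of the 47 were lower in kidney, Rpl36a and Rpl3, and none of the 32 small-subunit genes.

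Of the genes of iron metabolism 1 moved, the ferritin heavy chain. Ferritin, the iron storage shell, is made of heavy (Fth1) and light (Ftl1) chains, and both messages carry the element printed above. Fth1 (chr19:9980598-9985098) held 1887 and 1201 TPM in E15.5 RNA-seq and 371 and 442 TPM in Ribo-seq. At P42 its message stood at 12250 and 10750 TPM while its footprints stood at 668 and 439. Message was thus far higher in the adult, while the footprint values of the stages overlapped. The ratio went from −1.01 to −3.41, a fall of 2.40 ± 0.34 (limma adjusted p = 1.46e-05), which kept between −2.62 and −2.18 under every alternative run for the change. Corrected for its coding share of exon length, the E15.5 ratio of Fth1 was 0.04 in place of −1.01. Fth1 shares 26.2% of its coding stretches with other transcripts. Ftl1 was among the lowest genes at both stages, −2.83 and −4.18, with 983 and 609 TPM of message against 60.2 and 56.1 TPM of footprints and then 2132 and 1681 against 50.3 and 52.1. Its change of −1.35 ± 0.50 missed the threshold (limma adjusted p = 0.0867), 96% of its coding stretches are shared, and its exons overlap other annotated genes.

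Slc40a1, ferroportin, which exports iron from the cell and carries the same kind of hairpin, had a change above 0. Its RNA-seq values were 34.0 and 18.1 TPM at E15.5 and 13.2 and 16.7 TPM at P42, and its Ribo-seq values 6.86 and 6.63 and then 8.54 and 7.98. Message was lower and footprints slightly higher in the adult, with no overlap in either assay. The ratio went from −0.86 to 0.22, with the change of 1.08 ± 0.35 just outside the threshold (limma adjusted p = 0.0515). Alas2, the heme synthesis enzyme of red cells, stood at 0.59 and 0.52 and was not called. Tfrc, the transferrin receptor, whose elements lie in the 3′ untranslated region and act on stability, was high at both stages (1.14 and 1.83). Epas1, encoding the hypoxia factor HIF-2α, was high at P42 (1.28). None of the 8 genes on this list rose. The difference between Fth1 and Slc40a1 was not tested.

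**Figure D3:**
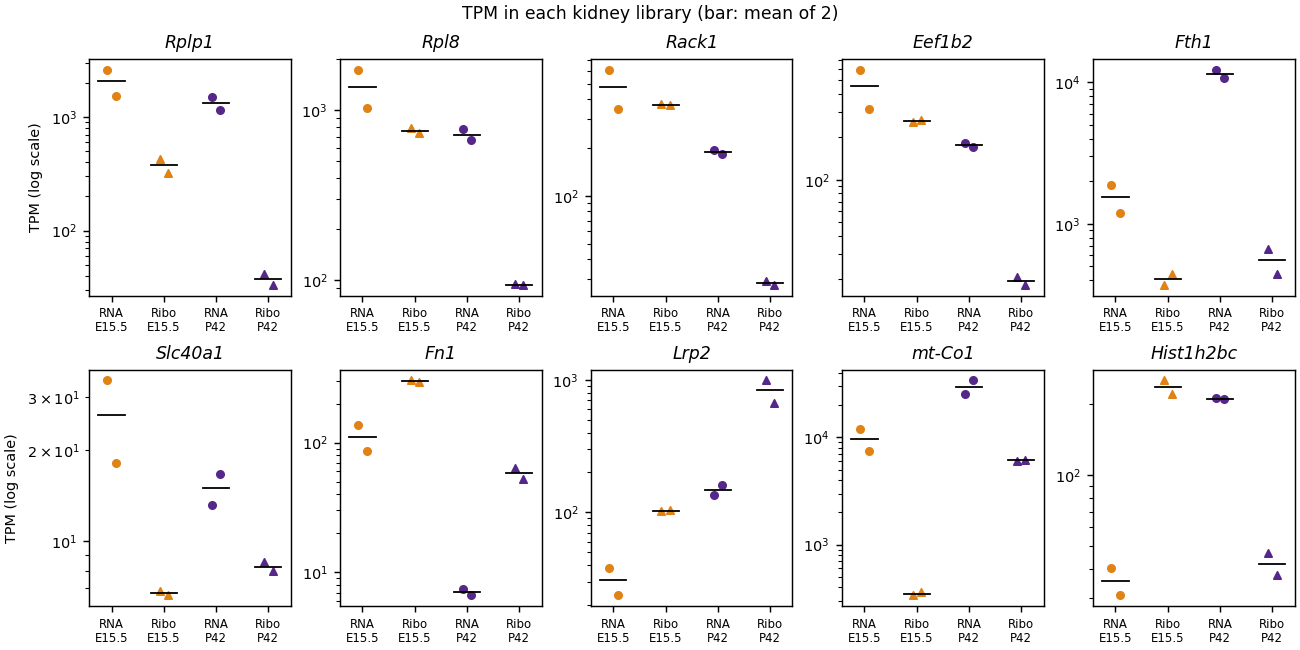
TPM of 10 genes in each of the 8 kidney libraries on log scales, with RNA-seq as circles, Ribo-seq as triangles, E15.5 in orange, P42 in purple and a bar at the mean of 2. For Rplp1, Rpl8, Rack1 and Eef1b2 the Ribo-seq points at P42 lie far below all other points, for Fth1 the message rises to 12250 and 10750 TPM while footprints stay near 371 to 668, and for Lrp2 and Fn1 footprints lie above message at both stages.

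Histone messages gave the highest ratios in the embryo. Of 67 replication-dependent histone genes listed, 22 reached the floor at E15.5, and 21 of them were high with a median of 7.59, which was 6.15 without RNA-seq replicate 1. Without replicate 2, 6 of the 22 were at the floor. Poly(A) selection is known to leave out messages with no tail, so these ratios are no measure of loading on all histone message. Over all 67 genes the RNA-seq libraries at E15.5 held 274 and 562 TPM in sum, and the Ribo-seq libraries 44540 and 42090 TPM. At P42 the sums were 334 and 345 TPM of RNA and 1839 and 1951 TPM of footprints. Footprint level itself was thus far higher in the embryo, and 51 histone genes had a mean of at least 100 TPM in E15.5 Ribo-seq against 5 at P42. The level of footprints needs no RNA-seq denominator. It does rest on how footprints that match several places were handled, which is not stated. Over the 67 listed genes, the median share of coding stretches also present in another gene's transcripts was 87.9%, and 63 shared over 10%. The footprint sums and the counts of genes at 100 TPM are uncertain for that reason.

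The library that stood apart decides which histones were tested. In E15.5 RNA-seq replicate 2 all 22 reached 5 TPM, in replicate 1 only 6, and the replicate 2 value was 6.72 times that of replicate 1 at the median. Hist1h4f had 0.974 and 22.4 TPM in E15.5 RNA-seq and 2584 and 2573 TPM in Ribo-seq, a ratio of 9.45. The linker histone gene Hist1h1b had 1.795 and 25.9 against 3061 and 2687, a ratio of 9.25. Without replicate 1 of the RNA-seq these ratios were 7.30 and 7.26, and without replicate 2 both genes were under the floor. The 6 genes at the floor in replicate 1 were Hist1h1c (5.86), Hist3h2a (3.97), Hist1h2bc (3.60), Hist3h2ba (2.98), Hist1h4i (1.07) and Hist2h2be (−0.90). They had the lowest ratios of the 22, and a higher replicate 1 value lowers the ratio by construction.

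At P42 only 6 histone genes reached the floor, and 3 of the 6 tested at both stages fell. Hist1h2bc, an H2B gene, had 40.2 and 30.9 TPM of message with 253 and 222 TPM of footprints at E15.5, and 213 and 210 TPM of message with 46.5 and 37.8 TPM of footprints at P42. Message and footprints exchanged places, a change of −4.91 ± 0.50 (SE, limma adjusted p = 1.15e-08), and of −4.73 or −5.08 with either E15.5 RNA-seq library left out. Its whole coding sequence recurs in other histone genes. Hist1h1c, a linker histone, fell by 3.32 ± 0.36 (limma adjusted p = 7.37e-08) and Hist3h2a by 3.04 ± 0.39 (limma adjusted p = 1.602e-06). Hist1h4h remained high at P42, at 6.26, with 7.38 and 5.66 TPM of message and 248 and 332 TPM of footprints, and its change of −1.76 did not pass (limma adjusted p = 0.0923).

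Mitochondrially encoded messages were the lowest group at E15.5 and moved the other way. All 11 tested were low at E15.5, with a median of −3.61. At P42 the median of 13 was −1.58 with 7 low, and 6 of 11 rose: mt-Atp8, mt-Nd5, mt-Co1, mt-Nd2, mt-Cytb and mt-Nd1. None fell. mt-Co1, the catalytic subunit of cytochrome oxidase, had 11970 and 7448 TPM of RNA with 336 and 363 TPM of footprints at E15.5, and 25580 and 34100 with 6096 and 6221 at P42. RNA was higher in the adult libraries and footprints far more so. The ratio rose by 2.61 ± 0.46 (limma adjusted p = 0.000373). mt-Cytb rose by 2.10 ± 0.58 (limma adjusted p = 0.0206) and mt-Nd1, of complex I, by 2.03 ± 0.48 (limma adjusted p = 0.00669), while mt-Nd6 stood at −3.19 and −3.23. The call of mt-Cytb was lost in 4 of 8 fits with 1 library left out. Of the 6, 3 rose without P42 RNA-seq replicate 1 and 3 with library weights. Mitochondrial genes took 7.32% and 4.72% of the TPM total in E15.5 RNA-seq, 18.5% and 23.7% at P42, and 0.226% and 0.273%, then 4.90% and 4.03%, in Ribo-seq. A median of 62.8% of their coding 28-base stretches recur in other transcripts. Whether poly(A) selection and footprinting took up these messages as they did nuclear ones was not tested. Their ratios need not be on the same scale as those of nuclear genes.

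The nuclear genes of oxidative phosphorylation, the partners of those subunits, moved in the opposite direction to them. Of 76, 33 were high and none low at E15.5 (median 0.81). At P42, 4 were high (Ndufs1, Ndufb6, Atp5g3 and Sdha) and 2 low (Cox8a and Uqcr11), with a median of −0.14 that was 0.20 after correction for coding share. In all 15 fell and none rose, and 75 of the 76 changes were below 0. Atp5e, the epsilon subunit of ATP synthase, had 136 and 68.7 TPM of message with 293 and 276 TPM of footprints at E15.5. At P42 it had 354 and 242 with 220 and 159. In TPM before centring, footprints lay above message in the embryo and below it in the adult. The centred ratio of Atp5e fell by 2.08 ± 0.36 (limma adjusted p = 0.000227), and it was not among the 2 low genes at P42. Cox8a fell by 2.05 ± 0.37 (limma adjusted p = 0.000539) and Cox6a1 by 1.99 ± 0.39 (limma adjusted p = 0.0011), both small subunits of cytochrome oxidase. Their messages were higher in the adult, with Cox8a at 876 and 511 TPM and then 3469 and 2704 TPM, and their footprints similar, at 644 and 603 and then 667 and 608 TPM. The number that fell was 4 without P42 RNA-seq replicate 1, 3 with kidney libraries alone and 2 with library weights.

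Mitochondrial ribosomal proteins, made in the cytosol, behaved likewise. Of 78, 9 were high and 3 low at E15.5 (median 0.36), 2 high and 13 low at P42 (median −0.27), and 10 fell with none rising. Mrpl34 had the largest fall, 1.72 ± 0.48 (limma adjusted p = 0.0224), a call lost in 5 of 8 fits with 1 library left out. Only 2 fell without P42 RNA-seq replicate 1, and none with library weights. Genes of fatty acid oxidation, the main fuel of the proximal tubule, gave 13 high of 23 at E15.5 (median 1.06) and 7 of 25 at P42 (median 0.72), with none low. Acaa2, a thiolase, led at E15.5 with 1.77, and Ppara, the receptor that drives this programme, at P42 with 3.57. Ppara had 1.29 and 1.00 TPM of message at E15.5, under the floor, and 4.61 and 14.4 TPM at P42, where its footprints reached 56.7 and 52.2 TPM. A single gene of the list fell, Etfb (−1.11), a call lost in 5 of 8 fits with 1 library left out.

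**Figure D4:**
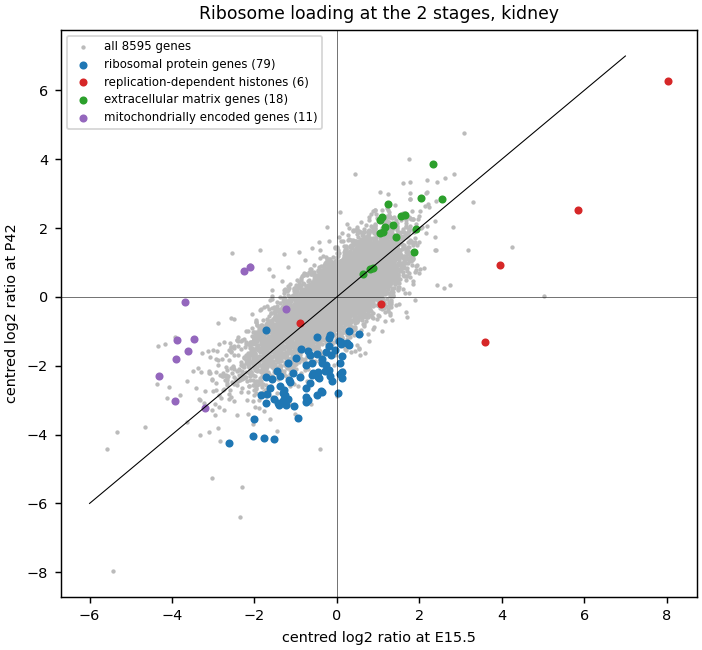
Centred log2 ratio at E15.5 (horizontal) against that at P42 (vertical) for the 8595 genes at the RNA-seq floor at both stages, with the diagonal marking no change. The 79 ribosomal protein genes lie below the diagonal with 1 exception, 10 of the 11 mitochondrially encoded genes lie above it, and 5 of the 6 histone genes lie below it.

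Of the extracellular matrix genes, 22 of 26 were high at E15.5 (median 1.42) and 16 of 20 at P42 (median 2.01), and no tested member was below 0 at either stage. Fn1, fibronectin (chr1:71585520-71653200), had 136 and 86.2 TPM of message with 301 and 295 TPM of footprints at E15.5, and 7.43 and 6.65 with 64.0 and 52.5 at P42. Footprints exceeded message in every pairing of libraries, more so in the adult, and the ratio rose from 2.33 to 3.87 (1.54 ± 0.37, limma adjusted p = 0.00771). Nid1, a linker of basement membranes, rose from 1.23 to 2.71. These were the 2 that rose, and neither passed with kidney libraries alone (adjusted p = 0.0934 and 0.123). Col1a1 stood at 2.05 and 2.86 and the heparan sulfate proteoglycan Hspg2 at 2.55 and 2.85. Among genes of translocation and folding in the endoplasmic reticulum, 11 of 23 were high at E15.5 and 7 at P42, among them the chaperone Hsp90b1 (1.53 at E15.5) and the disulfide isomerase Pdia4 (1.96 at P42). Srp9 was low at P42 (−1.25), and Sec61g and Dad1, both very short proteins, fell by 1.47 and 1.13 on the log2 scale. Calls of these falls were lost in 2 and 4 of 8 fits with 1 library left out, and with kidney libraries alone.

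Other housekeeping groups were above the median gene in the embryo and nearer to it in the adult. For the proteasome, 18 of 31 genes were high at E15.5 (median 1.03) and 4 at P42 (median 0.47), with Psmc5 the only one to fall (−1.12), lost in 4 of 8 fits with 1 library left out. For aminoacyl tRNA synthetases, 14 of 21 were high at E15.5 (median 1.15) and 6 at P42 (median 0.81), with Sars the only one to fall (−1.001), lost in 5 of 8 such fits. Of 33 cell division genes, 16 were high at E15.5 (median 0.93), led by Rrm1 of nucleotide reduction (1.76) and Top2a (1.64). Only 12 of the 33 reached the floor at P42, of which Ccnb2 (1.16) and Mcm6 (1.05) were high, and none moved. Splicing factors lay close to the median gene, at 0.24 and 0.08, with 3 of 32 and 4 of 31 high. Rbm3, a cold-induced RNA-binding protein, was the one low (−1.69 at P42). None of them moved.

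Genes that mark the nephron were, as a group, not loaded alike. In the proximal tubule, which recovers most of the filtrate, 2 of 21 genes were high at E15.5 and 10 of 30 at P42 (medians 0.77 and 0.89). The endocytic receptors megalin (Lrp2) and cubilin (Cubn) led at both stages. Lrp2 (chr2:69424340-69586065) had 38.0 and 23.6 TPM of message with 103 and 103 TPM of footprints at E15.5, and 136 and 161 with 989 and 672 at P42. Its footprints exceeded its message in all libraries, by the most in the adult, yet the change from 2.63 to 3.45 did not pass (limma adjusted p = 0.319). Cubn stood at 2.44 and 3.35. Sodium-coupled carriers Slc5a12 (2.09) and Slc6a19 (2.04) followed at P42. The phosphate carrier Slc34a1 (0.74 and 1.37, limma adjusted p = 0.497 and 0.194) and Kap, the androgen-regulated kidney protein (0.70 at P42, limma adjusted p = 0.692), were not called. Kap had the most footprints of these, 47340 and 35110 TPM against 61080 and 41170 TPM of message. The water channel Aqp1 stood at 0.50 and −0.03.

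Slc5a2, the glucose carrier of the first segment, was the only gene of this list to rise. Its message was 17.1 and 10.2 TPM at E15.5 and 397 and 354 TPM at P42, with footprints at 2.01 and 2.30 and then 495 and 402 TPM. The ratio rose by 2.54 ± 0.72 (limma adjusted p = 0.0234), but its exons overlap another gene, and the call was lost with any 1 of the 8 libraries left out (adjusted p from 0.0558 to 0.0855).

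Along the loop of Henle and the distal tubule, 1 of 10 genes was high at E15.5 and 3 of 20 at P42. Slc8a1, the sodium-calcium exchanger, went from 3.09 to 4.76, with 24.02 and 13.9 TPM of message under 77.8 and 101 TPM of footprints and then 4.94 and 10.9 under 125 and 102 (limma adjusted p = 0.0294 for the rise of 1.67). That call was lost in all 7 fits with 1 library left out that kept the gene (adjusted p from 0.0519 to 0.277). The prepro-EGF gene Egf (2.13) and the sodium-potassium-chloride carrier Slc12a1 (1.74) were high at P42. Bsnd, barttin, a chloride channel subunit, was low there (−1.29). Umod stood at 1.05 and was not called (limma adjusted p = 0.347). In the collecting duct, 2 of 14 genes were high at E15.5, Aqp3 (1.14) and Atp6v1b1 (1.05), and none low. Of 16 at P42, Aqp3 (1.09) and the sodium channel subunit Scnn1g (1.04) were high, the intercalated cell genes Atp6v1g3 (−1.69) and Foxi1 (−1.37) were low, and the water channel Aqp2 stood at −0.05 and −0.89. Tmem213 alone fell (−1.05), a call lost in 6 of 8 fits with 1 library left out. Podocyte genes gave 2 low of 15 at E15.5, Lmx1b (−1.11) and Synpo (−1.06), and 2 high of 9 at P42, Tcf21 (1.35) and Actn4 (1.05). None of the 9 tested at both stages moved.

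The regulators of nephron formation lay mostly below the median gene in the embryo. Of 30 tested at E15.5, 9 were low and 2 high (Crym and Jag1), with a median of −0.57 and 24 below 0. Six2, which maintains nephron progenitors, had 169 and 110 TPM of message with 15.9 and 14.3 TPM of footprints, a ratio of −2.22 (limma adjusted p = 5.23e-09). Gdnf, the signal that draws out the ureteric bud, had 49.3 and 28.4 with 3.68 and 3.53, a ratio of −2.18. Hoxd11 (−2.15) and Wnt4 (−2.10), which starts the transition to epithelium, were alike. Their footprints were below message in both libraries by a wide margin. The receptor of Gdnf, Ret, stood at −0.27 and Pax2 at −0.82, neither called. Only 12 of the list reached the floor at P42, with Pax8 low (−1.14) and Jag1 high (1.56), and Spry1, a brake on Ret signalling, rose from −1.70 to −0.25 (limma adjusted p = 0.00494), a call lost with kidney libraries alone (0.113), with library weights (0.181) and without P42 RNA-seq replicate 1 (0.0704).

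Messages known for control by upstream reading frames lay mostly below the median gene, 11 of 13 rows at each stage. Of these rows, with Ddit3 listed under 2 identifiers, 4 were low and 2 high at E15.5 and 5 low and 1 high at P42, and none moved. Atf4, the transcription factor of the integrated stress response, had 296 and 181 TPM of message with 27.1 and 22.5 TPM of footprints at E15.5, and 97.2 and 90.7 with 9.27 and 7.58 at P42. Its ratio was −2.29 and −2.34, with message and footprints both lower in the adult (change −0.05 ± 0.51, limma adjusted p = 0.967). Ppp1r15a (−1.73 and −1.39), Atf5 (−1.38 and −1.63) and Slc35a4 (−1.58 and −1.35) were low at both stages, and the tRNA synthetase Eprs was high at both (1.48 and 1.52).

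Of the polyamine genes, 4 of 11 were low at E15.5 and 5 of 8 at P42, and none was high. Oaz1 and Oaz2, antizymes whose reading needs a programmed frameshift, stood at −2.29 and −1.78 and then at −2.32 and −2.09, and Odc1, the enzyme they degrade, at −1.27 and −2.25. None moved. Selenoprotein genes, which read a UGA codon as selenocysteine, gave 4 low of 19 and 6 low of 18 with none high. Selenow was the lowest (−2.17 and −2.99). Selenok (−1.62) and Gpx4 (−1.36) fell, both with over 80% of their coding stretches shared, and neither fell with kidney libraries alone. Gpx3, the secreted peroxidase made in kidney, had 118 and 72.8 TPM of message at E15.5 and 41550 and 37950 TPM at P42, with footprints at 19.5 and 17.2 and then 8213 and 7730. Its ratios were −1.40 and −1.32 (change 0.08 ± 0.82, limma adjusted p = 0.964). Of the immediate early genes Jund was low at both stages (−2.45 and −2.38), Klf4 and Junb at E15.5 and Btg2 at P42, Jun was high at P42 (1.03), and none moved.

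Among called genes ranked with no overlapping exons and no predicted model, the lowest ratios at E15.5 were those of Lars2, Rtl8a, mt-Cytb, Arxes2, BC005537, Arl5a, Cox7a2l, Cd24a, Wbp1 and Sox12. Lars2, a mitochondrial leucyl tRNA synthetase, had 405 TPM in RNA-seq replicate 1 and 2725 in replicate 2, with footprints at 44.6 and 15.9. Its ratio of −4.36 was −2.63 without replicate 2 and −6.10 without replicate 1. Rtl8a and Arxes2 are shared in full with near-identical copies, and their footprints were at or near 0. Arl5a, a small GTPase, was free of such copies, with 121 and 68.8 TPM of message and 3.89 and 3.51 TPM of footprints (−3.42), and it was low at P42 as well (−2.65). Sox12 (−3.09 and −2.21) and Wbp1 (−3.09 and −3.92) were likewise low at both stages with under 1% shared.

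Among the highest ratios at P42 were Hist1h4h, Alb, Ppara, Apob, Lrp2, Lrp1, Abca13, Slc7a12 and Cbr2. Alb, serum albumin, is a liver message: its RNA-seq values were 1889 and 1151 TPM at E15.5 and 8.18 and 6.86 at P42, with 2691 and 2658 and then 69.2 and 66.6 TPM of footprints (1.74 and 4.02). Its P42 message was near the floor, and whether its footprints came from kidney cells was not tested. Apob, of lipoproteins, had 4.64 and 7.20 with 40.1 and 38.8 TPM at P42 (3.57). The lowest at P42 in the same ranking, beside ribosomal proteins, Tpt1 and Ybx1, were Cox7a2l (−4.02), Wbp1, the cyclin Ccni (−3.81), Igip (−3.70) and Vegfb (−3.42). Vegfb, a vascular growth factor, had 113 and 88.2 TPM of message and 3.71 and 3.70 TPM of footprints.

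Among called genes whose 2 replicate ratios at one stage both lay above those at the other, with no overlapping exons and no predicted model, the 10 largest rises were Lyz2, Cmah, Hoxa5, mt-Cytb, Cyp1b1, Ogn, Zfp970, Tuba1c, Nfat5 and Il33. Cmah alone of the 10 kept its call with library weights. Lyz2, macrophage lysozyme, rose by 2.27 ± 0.45 (limma adjusted p = 0.00139, and 0.137 with library weights), with message at 66.9 and 38.6 and then 24.4 and 27.97 TPM and footprints at 23.0 and 22.9 and then 34.8 and 85.3. The P42 Ribo-seq replicates of Lyz2 lay far apart, and the 6 other macrophage genes tested at both stages did not move. Lyz2 was the 1 macrophage gene high at P42. That count was 0 with genes sharing over 10% of their coding stretches left out. Cmah, which makes the sialic acid Neu5Gc, had overlapping message at both stages, 8.53 and 4.38 and then 5.69 and 7.05 TPM, while footprints went from 0.376 and 0.293 to 5.23 and 3.99. Its footprint values did not overlap, and the ratio rose by 2.14 ± 0.27 (limma adjusted p = 1.17e-06), between 1.04 and 3.13 over the alternatives, where the pseudocount set both ends. Nfat5, the factor that answers high salt in the renal medulla, had 46.7 and 27.8 TPM of message and 7.36 and 6.74 of footprints, then 5.95 and 9.25 and 4.50 and 5.22. Its ratio rose from −1.33 to 0.47 (limma adjusted p = 0.000428, and 0.104 with library weights). Cyp1b1 (2.03 ± 0.30, limma adjusted p = 1.90e-05), the matrix proteoglycan Ogn (1.87 ± 0.45, 0.00846) and the alarmin Il33 (1.74 ± 0.31, 0.000374) rose from near the median gene to well above it. Hoxa5 rose by 2.13 ± 0.67 (limma adjusted p = 0.0406), a call lost with any 1 of the 8 libraries left out.

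Of the endothelial genes, 3 of 10 were high at E15.5 and 6 of 10 at P42, with medians of 0.35 and 1.04. Kdr, a VEGF receptor, stood at 1.596 and 2.42, and Cdh5, VE-cadherin, was the one to rise (1.25 to 2.38, limma adjusted p = 0.0316), a call lost in 4 of 8 fits with 1 library left out and with kidney libraries alone (0.342). Messages of cells from elsewhere had ratios of their own. At E15.5 6 of 10 liver genes were high (median 1.32), 2 of 12 adrenal genes were high (Pnmt at 1.30 and Cyp11a1 at 1.09, median 0.66), and of the erythroid genes Hbb-bh1 was high (2.11) and Hbb-bt low (−1.14). At P42 4 of 6 liver genes were high and 1 low (Serpina1a), no adrenal gene reached the floor, and Klf1 was the erythroid gene called (−1.32, a fall of 1.17). The fall of Klf1 lost its call in 2 of 8 fits with 1 library left out. It was also lost with a pseudocount of 4 TPM (−0.27, limma adjusted p = 0.331). Over the members at the floor in each tissue, the liver list had a P42 median of 0.42 in liver itself. It was 0.43 in retina, 1.28 in kidney, 4.57 in lung and 4.89 in brain. At E15.5 it was 1.16 in liver, 1.32 in kidney, 2.82 in heart, 3.64 in brain and 4.93 in lung. High ratios of liver genes were thus found in tissues other than liver, and the source of their footprints was not tested. The part of cells from elsewhere in the stage difference of other genes was not tested.

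Set against the other 5 tissues, few of the genes at the floor in all 6 were called different in kidney. That floor left no gene of the proximal tubule, loop of Henle and distal tubule, collecting duct or nephrogenesis lists at P42. At E15.5 it left 3, 2, 0 and 3 of them. A gene that was not called was not shown to be alike. Of 7936 genes at the floor in all 6 tissues at E15.5, none was higher in kidney (0%) and 3 were lower (0.0378%), with 344 at an unadjusted p below 0.05 (limma). The 3 were mt-Atp8 (−2.43), Copg2 (−1.45) and Capn12 (−1.17), named after their values were seen, and exons of each overlap another gene. At P42, 18 of 4195 genes were higher (0.429%) and 14 lower (0.334%), with 417 at an unadjusted p below 0.05. Leaving out genes with overlapping exons left 4 and 2. For this comparison the ratios were centred again on the shared genes.

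Lrp1, the endocytic receptor related to megalin, was highest above the other tissues among genes free of overlaps, by 1.46 ± 0.25 (limma adjusted p = 0.000388). Its ratio at P42 was 3.404 in kidney, 2.66 in lung, 2.43 in heart, 2.18 in liver, 2.14 in brain and 0.88 in retina. Col6a1 (1.34, limma adjusted p = 0.0396), the prostaglandin-degrading enzyme Hpgd (1.30, 0.00619), Fxyd1 (1.24, 0.0192) and Epas1 (1.16, 0.0012) followed. Scp2, a peroxisomal sterol carrier and thiolase, was the lowest, by −1.48 ± 0.24 (limma adjusted p = 0.000198): its ratio was −0.35 in kidney and between 0.95 and 2.04 in the other tissues. Cfap36 (−1.22, 0.0405), Mrps21 (−1.18, 0.0166), Rpl36a (−1.12, 0.0302) and Fth1 (−1.09, 0.0319) came next. Of these 10 genes, Lrp1 and Scp2 kept their calls in every fit run with 1 library left out, and the other 8 each lost theirs in at least 2 such fits. With overlapping genes left out of the table and the median and p-values taken anew, Col6a1 (0.0623), Cfap36 (0.0855), Rpl36a (0.0623) and Fth1 (0.0623) missed the threshold, though their own exons overlap no other gene. For Fth1 the kidney ratio of −3.41 was the lowest of the 6, with brain at −2.92, heart at −2.77, lung at −2.03, liver at −1.78 and retina at −1.51.

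The ratio also followed the lengths of the transcript's parts. TPM divides reads by the length of all exons, while footprints lie on the coding part, so a gene with long untranslated regions has a lower ratio by construction. From the lowest to the highest of 5 equal bins of genes by coding share of exon length, the median ratio ran from −0.31 to 0.38 at E15.5 and from −0.26 to 0.31 at P42 (r = 0.24 and 0.23 across genes). Coding length went with the ratio more closely in the adult: r = 0.14 at E15.5 and 0.38 at P42, over 11532 and 9256 genes that share libraries and annotation. The lowest bin at P42, coding lengths of 36 to 657 bases, had a median of −0.50, and the highest bin, from 2181 bases, 0.54. The change between stages followed coding length too. In the shortest bin its median was −0.35, with 33 genes rising and 171 falling of 1717, and in the longest 0.37, with 132 rising and 8 falling.

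Ribosomal proteins are short, with a median coding length of 453 bases, and length moves with their fall. With those genes left out, the shortest bin still had a median change of −0.32, with 128 of 1702 falling. Beside it stand the medians of −1.53 and −1.61 for the ribosomal subunits, −1.32 for other TOP messages, −0.81 for nuclear oxidative phosphorylation and −0.57 for mitochondrial ribosomal proteins. The part of length in these changes was not tested. The correlation with RNA-seq level was −0.03 at E15.5 and −0.18 at P42, and with the length of the 5′ untranslated region −0.10 and −0.02.

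**Figure D5:**
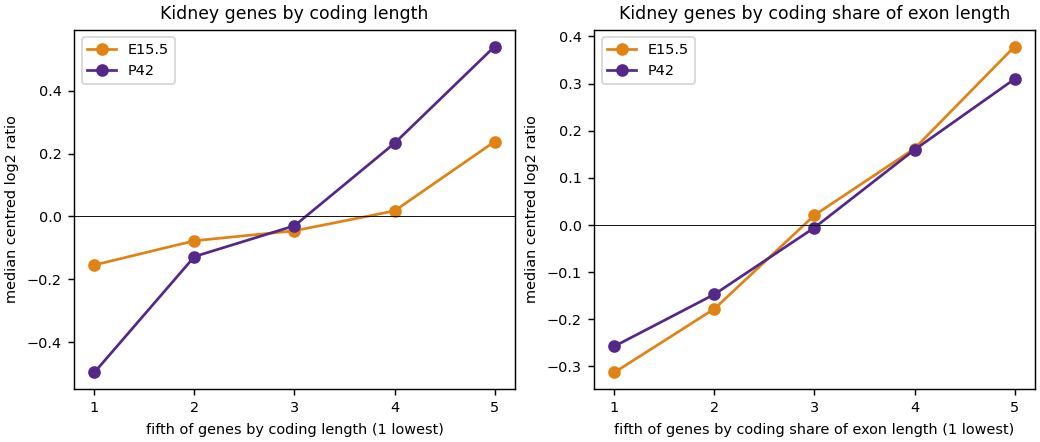
Median centred log2 ratio of kidney genes in 5 equal bins by coding length (left) and by coding share of exon length (right), at E15.5 (orange) and P42 (purple), with bin 1 the lowest. The rise with coding length is steeper at P42, from −0.50 to 0.54, than at E15.5, from −0.15 to 0.24, while the rise with coding share is similar at both stages.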

How the data were processed

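The values used are TPM at exon level as the authors deposited them, in 4 tables of 12 libraries, with a table for each stage and assay. Per the submitters' processing notes, CASAVA 1.8.2, cutadapt 1.8.1, TopHat2 2.0.14 and featureCounts 1.6.2 were used with GRCm38.p6. No label or header names the annotation release or the features behind each TPM total, and depth is unknown. Of 22055 genes, 22029 matched GENCODE M21 without the version.

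Values were analysed as log2(TPM + 1) with limma 3.58.1 in R 4.3.3: 24 group means over all 48 libraries, 24 residual degrees of freedom, a variance trend and Benjamini-Hochberg adjustment. The stage medians subtracted from the ratio were −0.88 (E15.5) and −0.997 (P42). The change is an interaction contrast. Kidney was compared with the mean of the other 5 tissues where the floor of 5 TPM was met in all 6. The fit was tested on simulated data.

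Coding lengths and 28-base sharing came from GENCODE M21. The members, the 30 gene lists and the tests were chosen with earlier results of these data known. Lists got counts and medians, no test. Genes named are the 10 highest and 10 lowest at each stage and for the change, and 5 each way against other tissues. These ranks took only called genes with no overlapping exons and no predicted model, where both centred Ribo-seq values lay on one side of both RNA-seq values or, for the change, both replicate ratios of a stage lay above both of the other. Added to them were up to 4 called members of each list at a stage and 3 for the change, a fixed set of well-known genes, and the few said to be chosen after their values were seen. P-values measure the spread between replicates described as biological. Alternatives were other pseudocounts, floors, scalings, weights and fits, each kidney library left out, and, chosen after seeing the data, genes sharing over 10% of 28-base stretches left out. Results of a few genes that the naming rule would include are not reported here.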

Additional observations from a re-analysis of the deposited data

Results flagged for a closer look

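These results stood out because the difference itself, between stages or between kidney and the other 5 tissues, passed its test (limma, adjusted p below 0.05, size of at least 1). From E15.5 to P42 the kidney ratio rose for Lyz2 (2.265), Cmah (2.144), Hoxa5 (2.129), mt-Cytb (2.103), Cyp1b1 (2.027), Ogn (1.868), Zfp970 (1.836), Tuba1c (1.812), Nfat5 (1.792) and Il33 (1.741). Of these rises, Cmah alone kept its call with library weights. The ratio fell for Hist1h2bc (−4.907), Hist1h1c (−3.32), Rpl37a (−2.797), Rplp1 (−2.596), Rps9 (−2.492), Ybx1 (−2.463), Rpl36a (−2.4), Fth1 (−2.395), Rpl9 (−2.351) and Rps23 (−2.337).

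Against the other 5 tissues at P42 the kidney ratio was higher for Lrp1 (1.464), Col6a1 (1.337), Hpgd (1.302), Fxyd1 (1.242) and Epas1 (1.158). It was lower for Scp2 (−1.482), Cfap36 (−1.216), Mrps21 (−1.182), Rpl36a (−1.12) and Fth1 (−1.09). In the fits run with 1 library left out, Lrp1 and Scp2 kept these calls and each of the other 8 genes lost its call in at least 2 fits.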

How the results depend on the processing

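Counts of genes called high at E15.5, low at E15.5, high at P42 and low at P42 (1241, 1668, 1108 and 1334) moved with the choices below. Not centred they were 102, 5142, 127 and 4612, and with a floor of 20 TPM 752, 1094, 550 and 716. Without genes whose exons overlap another gene, and so with fewer genes tested, they were 761, 1006, 651 and 818. A pseudocount of 4 TPM gave 704 and 1031 at E15.5 and 666 high at P42. With 1 library left out they ranged over 1173 to 1270, 1612 to 1705, 1000 to 1191 and 1278 to 1467.

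Of the changes between stages, 299 up and 283 down, a floor of 1 TPM gave 593 and 489, a floor of 20 TPM 86 and 148, kidney libraries alone 44 and 78, and library weights 15 and 45. Leaving out overlapping genes gave 150 and 166, and leaving out genes that share over 10% of their coding stretches, an alternative chosen after seeing the data, 194 and 169. Not centred, 195 rose and 394 fell. With 1 library left out, 60 to 354 rose and 101 to 268 fell, the lowest without P42 RNA-seq replicate 1.

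For kidney against the other tissues at E15.5 (0 up and 3 down), a pseudocount of 4 TPM gave 1 and 5, a floor of 1 TPM 10 and 19, median-of-ratios scaling 4 and 9, mitochondrial genes left out 6 and 10, not centred 67 up, and library weights and overlapping genes left out 0 down each. At P42 (18 up and 14 down), a floor of 1 TPM gave 78 and 41, a floor of 20 TPM 1 and 2, overlapping genes left out 4 and 2, a Ribo-seq floor 8 down and shared genes left out 9 down. With 1 library left out these counts were 0 to 2 and 0 to 3 at E15.5 and 7 to 23 and 8 to 15 at P42. The cause of these moves was not tested.

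Corrected for the coding share of exon length, 12 ratios of named genes that were called before or after the correction changed sign. Sign changes of ratios called in neither fit, or of other genes, were not counted. The 12 were Igip 0.57, Fth1 0.041, Rps15a 0.73, Rps20 0.72 and Mrpl42 0.021 at E15.5, and Rps15a 0.10, Acaa2 −0.17, Ccnb2 −0.055, Psmc5 −1.07, Sec61g 1.19, Dad1 1.71 and Cdh16 −0.12 at P42. Deviations of same-numbered RNA-seq and Ribo-seq libraries correlated at −0.099 at E15.5 and 0.171 at P42, which does not show that the numbers pair them. With the replicate number as a block, 322 genes rose and 340 fell, 1247 and 1671 were high and low at E15.5, and 1113 and 1335 at P42.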
